A study of Mus musculus with 8 samples.

Results

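The genes described here encode the subunits of 3 large assemblies that act with RNA polymerase II, namely Mediator, Integrator and TFIID. They were chosen by name: every RefSeq protein-coding gene of the mouse build mm10 whose symbol is Med, Ints or Taf followed by a number, with a letter suffix allowed. This gave 68 members among the 21887 protein-coding genes of the autosomes, X and Y. Of these, 30 were Mediator genes, 15 Integrator genes and 16 TFIID genes. The symbol rule also took in 7 genes whose products belong elsewhere and which are kept apart below. Taf1a, Taf1b, Taf1c and Taf1d encode the 4 Taf subunits of SL1, the promoter factor of RNA polymerase I. Taf5l and Taf6l encode SAGA subunits, and Taf15 encodes an RNA-binding protein of the FET family. The name of the group therefore holds for 61 of the 68 genes.

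Mediator is a bridge between DNA-bound activators and RNA polymerase II and is built from head, middle and tail modules around the scaffold Med14, with a separable kinase module. TFIID contains the TATA-binding protein and the Taf proteins, recognises core promoters and nucleates the preinitiation complex. Integrator carries an RNA endonuclease and recruits the phosphatase PP2A, and it processes small nuclear RNAs and terminates paused transcripts. Trimethylation of lysine 36 of histone H3 (H3K36me3) is laid down by Setd2, which travels with elongating RNA polymerase II, so that the mark lies over the bodies of transcribed genes rather than over their promoters.

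H3K36me3 was measured by ChIP-seq in embryonic stem cells of the mouse, grown without feeders as spheres in 2i medium, which holds the MEK inhibitor PD0325901 (1 µM), the GSK3 inhibitor CHIR99021 (3 µM) and LIF (1000 U/ml). The labels describe all cells as carrying a knockdown of Setd2 that doxycycline induces. Knockdown cells were given 1 µg/ml doxycycline over 4 days, and control cells none. The labels call the controls control in genotype and the deposited lists call them shCont, so whether they carried a separate control construct is not stated. The replicates are numbered, with nothing on whether they are separate cultures. Each condition has 2 ChIP and 2 input libraries, and the authors called peaks on the merged replicates, so each condition has 1 peak list. No replicate spread can be given and no test between conditions was possible, and differences below are differences between 2 lists.

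The control list held 30634 peaks from 36244210 kept ChIP tags and the knockdown list 3040 peaks from 29416169, so the knockdown list was the shallower of the pair. Setd2 itself was covered over 40.1% by 11 peaks in control and by none after knockdown, which describes the chromatin of the gene and is no measure of its transcript. Of 10 pluripotency genes 9 held a control peak, against 41.2% of all protein-coding genes. The other, Klf2, was covered over 95.1% of its length by peaks centred outside it. Of 22 fibroblast, neural and endoderm marker genes 2 held a control peak (Tubb3 and Nes). In the knockdown list 4 of the 10 pluripotency genes held a peak (Esrrb, Klf2, Tfcp2l1 and Sall4) and none of the 22 did, against 4.95% of all genes.

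A gene counts as having a peak where its span holds the midpoint of 1 or more peaks. Covered share stands for the part of a gene's length, in percent, that lies under peaks. Over all protein-coding genes the share with a control peak was 41.2%, and with a knockdown peak 4.95%. The genome table used here gives gene spans without exons, so exonic and intronic positions were not examined.

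The upstream sequences of 5 members are printed as examples from marked and unmarked genes, and use of these starts in the cells was not measured. Ints3 is shown because it kept a peak after knockdown, and Med17 and Taf5 because they were covered over most of their length in control and lost all of it. Taf13 and Taf9b are shown because they had no covered base in either list. Each run is the 250 bases before the RefSeq start (build GRCm38.p6), 5′ to 3′ on the strand of the gene, and no annotated gene overlaps it. Capitals mark matches on either strand to 4 letter patterns, the TATA box TATAAA, the CCAAT box CCAAT, the ETS-type element CCGGAAG and the GC box GGGCGG. Each pattern was searched on its own, and matches of different patterns may overlap.
Ints3, chr3:90433637-90433886, minus strand: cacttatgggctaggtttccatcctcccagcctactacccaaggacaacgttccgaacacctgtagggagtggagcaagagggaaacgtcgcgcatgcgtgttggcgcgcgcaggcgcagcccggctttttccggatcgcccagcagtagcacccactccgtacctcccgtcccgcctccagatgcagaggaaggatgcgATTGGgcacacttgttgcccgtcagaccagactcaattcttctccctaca
Med17, chr9:15279907-15280156, minus strand: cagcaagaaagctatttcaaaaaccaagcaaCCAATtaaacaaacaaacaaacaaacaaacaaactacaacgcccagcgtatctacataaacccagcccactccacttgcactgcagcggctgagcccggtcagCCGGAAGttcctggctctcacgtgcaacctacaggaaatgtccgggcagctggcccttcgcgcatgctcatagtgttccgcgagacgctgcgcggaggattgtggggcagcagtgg
Taf5, chr19:47067498-47067747, plus strand: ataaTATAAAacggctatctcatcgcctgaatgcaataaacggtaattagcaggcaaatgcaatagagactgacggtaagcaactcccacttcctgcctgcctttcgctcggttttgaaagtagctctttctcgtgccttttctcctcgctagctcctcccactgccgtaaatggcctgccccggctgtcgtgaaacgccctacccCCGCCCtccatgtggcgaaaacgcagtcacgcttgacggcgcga
Taf13, chr3:108571449-108571698, plus strand: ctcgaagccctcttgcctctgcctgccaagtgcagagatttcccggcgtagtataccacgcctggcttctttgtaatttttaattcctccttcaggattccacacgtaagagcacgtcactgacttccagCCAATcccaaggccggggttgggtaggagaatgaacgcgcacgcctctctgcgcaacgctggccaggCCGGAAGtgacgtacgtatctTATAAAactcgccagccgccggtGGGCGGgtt
Taf9b, chrX:106221159-106221408, minus strand: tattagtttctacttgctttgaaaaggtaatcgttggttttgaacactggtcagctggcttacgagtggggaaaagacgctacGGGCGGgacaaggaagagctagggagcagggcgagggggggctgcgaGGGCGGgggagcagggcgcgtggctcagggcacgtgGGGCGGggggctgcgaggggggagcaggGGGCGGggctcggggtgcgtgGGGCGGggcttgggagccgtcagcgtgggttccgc
None of these 5 stretches had a base under a control peak. They held 18, 14, 19, 19 and 20 CpG dinucleotides in the order printed. The unmarked Taf13 carried all 4 patterns, and the unmarked Taf9b carried GC boxes only. Ints3 carried a CCAAT box only.

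Upstream sequences of this kind could be read for 57 members and for 17492 genes in all. The GC box was present in 39 of the 57 members (68.4%), against 42.7% of all genes and 61.0% of the genes with control-covered bases. The ETS-type element was present in 13 (22.8%, against 9.15% and 15.3%). The CCAAT box was present in 26 (45.6%, against 36.5% and 37.2%) and TATAAA in 6 (10.5%, against 12.4% and 5.76%). The median number of CpG dinucleotides was 18 in the members, 10 in all genes and 16 in genes with control-covered bases. A match of letters is a description of the sequence and not a measured binding site.

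In control cells most of these genes were marked. Of the 68 members, 59 (86.8%) had a control peak, and together they held 178 control peaks. Their median covered share was 48.3% (quartiles 14.9% and 75.0%, highest 93.7%), where the median over all protein-coding genes was 0. Over their summed length of 2773 kb, 712 kb (25.7%) lay under control peaks, against 9.37% for all genes. In 33 members (48.5%) at least 50% of the gene was covered, against 17.0% of all genes. Med31, a small middle-module subunit, and Taf10, a histone-fold subunit shared by TFIID and SAGA, had no peak midpoint but were covered over 38.2% and 44.3% of their length by peaks centred outside them. The other 7 members without a peak had no covered base. These were Med12l, Med14, Ints6l, Taf13, Taf9b, Taf7l and Taf1b.

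After knockdown 3 members still had a peak, Ints3, Taf1d and Taf5l. With only peaks of an FDR of 1% or less this count was 0, and with a caller score of 100 or more it was 1. The caller's FDR did not follow the score here. In the order Ints3, Taf1d and Taf5l the scores were 103.73, 73.03 and 65.84 and the FDRs 1.92%, 1.4% and 1.16%. Shares of all genes under these 2 filters are not given. Each of the 3 members also had a control peak, so 3 of the 59 marked members (5.08%, exact Clopper-Pearson 95% interval 1.06% to 14.1%) kept one, against 10.6% of all marked genes. The interval covers counting error only, and it includes the share in all genes. It treats the genes as independent although they come from 1 pooled list, so it is no test of a difference. No member had a peak only after knockdown. Covered length fell from 712 kb to 4.56 kb, which is 0.164% of the summed length, against 0.259% for all genes. Of the 33 members covered over at least 50% of their length, 3 (9.09%) kept a peak, against 12.8% of all genes covered to that extent.

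**Figure D1:**
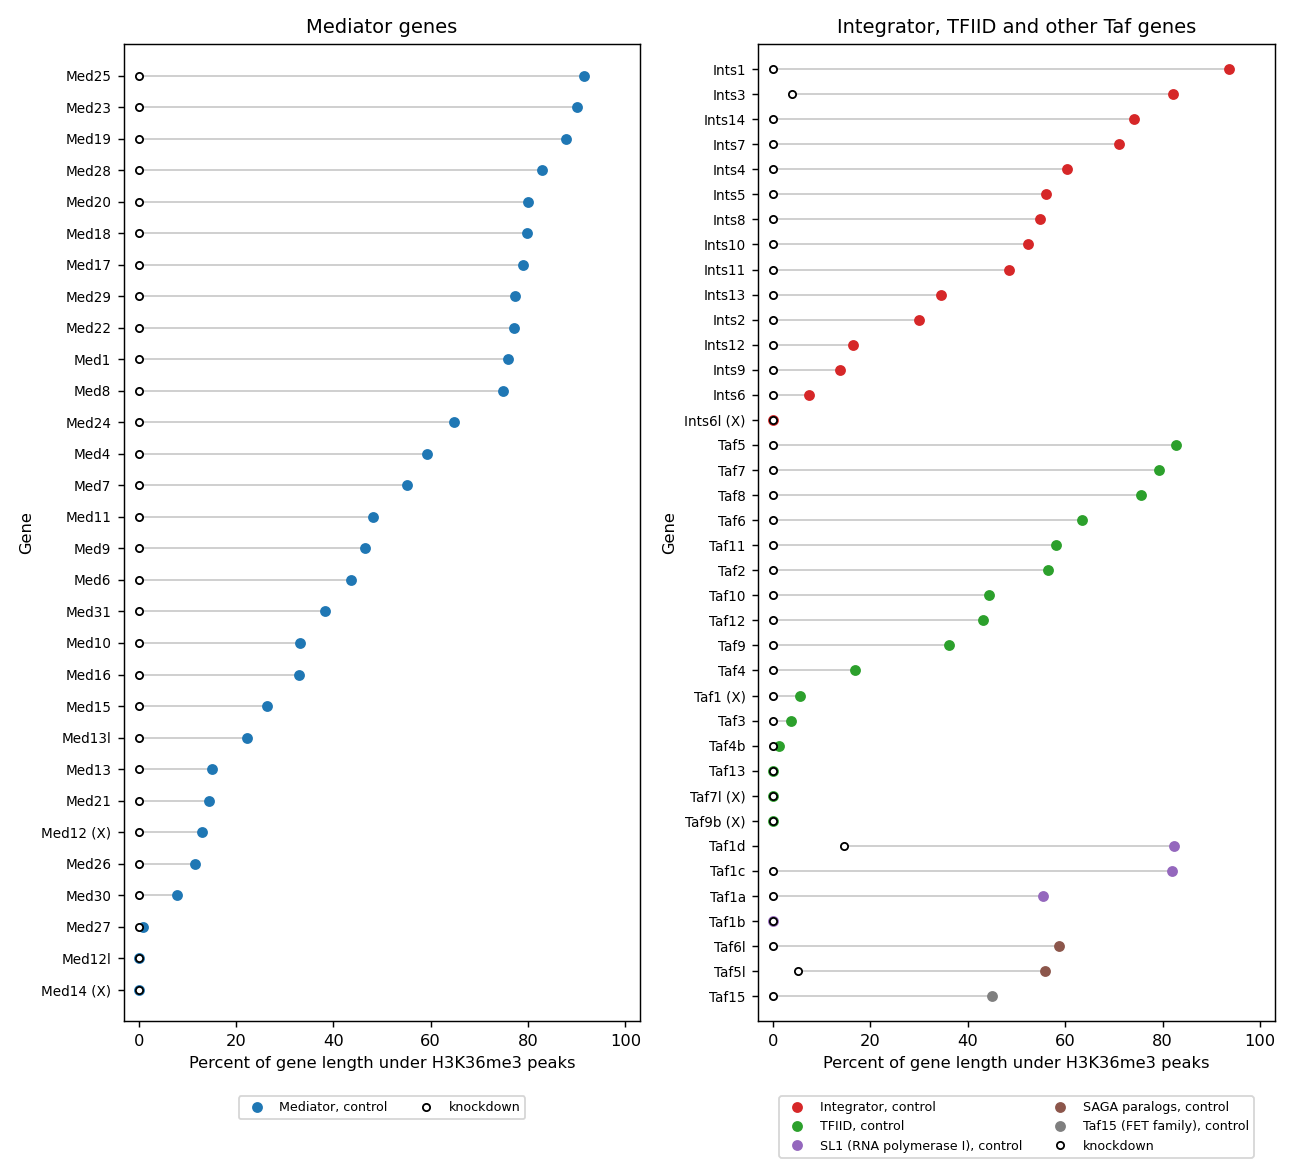
Percent of each gene's length under H3K36me3 peaks in the control list (filled circles, coloured by complex) and the knockdown list (open circles), 1 row per gene, X-linked genes marked (X). The control values run from 0 to 93.7%, while the knockdown values are 0 in every gene but Ints3 (3.92%), Taf5l (5.13%) and Taf1d (14.6%).

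Among the 30 Mediator genes 27 had a control peak, with 69 peaks in all and a median covered share of 47.3%. None had a knockdown peak. A count of 0 of 27 marked genes allows a kept share of up to 11.1%, where 10.6% of all marked genes kept a peak. The 3 most covered were Med25, a tail subunit bound by activators, at 91.6%, Med23, another tail subunit, at 90.0%, and Med19 of the middle module at 87.8%. Med25 is on chromosome 7 from 44876765 to 44892705 and carried a peak of 13573 bp and another of 1467 bp. The 3 least covered were Med14 and Med12l at 0 and Med27, a tail subunit in a gene of 178 kb, at 0.95%.

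The Mediator modules, as grouped here, differed in level. Med27, Med28, Med29 and Med30 were counted in the tail, and the head and tail values rest on that choice. All 7 head genes were marked, at a median of 77.1% and a lowest share of 43.5% in Med6. The head holds Med17, its central scaffold, which was covered over 79.0% of its length by 1 peak of 15442 bp. That peak had the highest fold over background of all 178 member peaks, 8.20 as given by the authors. All 9 tail genes were marked, at a median of 64.7% but with a range from 0.95% to 91.6%. The 9 middle-module genes had a median of 46.5%, from 11.6% in Med26, which docks elongation factors, to 87.8% in Med19, and 8 of them held a peak midpoint. The 4 genes of the kinase module stood lowest, at a median of 14.0%. Med13 and Med13l, paralogs that link the kinase to the core, were covered over 15.0% and 22.3%, Med12, which activates the kinase, over 13.1%, and its paralog Med12l not at all. The kinase-module genes were also the longest, at a median of 148 kb against 6.54 kb for the head. The genes of the kinase itself were covered over little of their length too. Cdk8 was covered over 5.10%, Cdk19 over 3.83% and Ccnc, their cyclin, over 4.12%. None of the 3 had a knockdown peak, where 4.95% of all genes had one.

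Among the 15 Integrator genes 14 had a control peak, with 71 peaks in all. Their median covered share was 52.3%, and 39.8% of their summed length was covered. These genes were long, at a median of 42.3 kb against 15.5 kb for Mediator and 16.1 kb for TFIID, and a marked Integrator gene held a median of 4 peaks where a marked Mediator or TFIID gene held 1. Ints1, the largest backbone subunit, had the highest share of all 68 members, 93.7%. It lies on chromosome 5 from 139751282 to 139775702 and carried control peaks of 2021, 11968 and 9524 bp with 116, 690 and 604 tags. No knockdown peak was called there. Ints3, which also serves in the SOSS complex that binds single-stranded DNA, followed at 82.1%, and Ints14 of the arm module at 74.1%.

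The lowest Integrator genes were Ints6l at 0, Ints6, which tethers PP2A, at 7.46% and Ints9 at 13.7%. The cleavage module joins the endonuclease Ints11 to Ints9 and Ints4, and these genes were covered over 48.5%, 13.7% and 60.4%. The 4 backbone genes ranged from 16.4% in Ints12 to 93.7% in Ints1 (median 50.4%), and the 3 arm genes from 34.5% in Ints13 to 74.1% in Ints14 (median 52.3%). Of 9 genes for Integrator partners, among them PP2A and SOSS subunits, 8 had a control peak (41.2% of all genes) and none a knockdown peak (4.95%). The highest was Ppp2r1a, the PP2A scaffold, at 74.2%, and the lowest Sem1 at 0.

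Among the 16 TFIID genes 12 had a control peak, with 26 peaks in all and a median covered share of 39.5%. This median was 27.6% with only peaks of a caller score of 100 or more, and 11.2% over the 8 TFIID genes that overlap no other annotated gene. Those 8 genes include the X-linked Taf1 at 5.56% and the X-linked Taf7l and Taf9b at 0. Over the members without such overlap the median was 59.3% for Mediator (13 genes) and 45.3% for Integrator (4 genes), so the order of these medians turned. None of the 16 had a knockdown peak, and 0 of 12 marked genes allows a kept share of up to 25%, where 10.6% of all marked genes kept a peak. Taf5, whose WD40 domain helps to hold the complex together, was highest at 82.8%, followed by Taf7, a partner of Taf1, at 79.2% and Taf8 at 75.6%. Taf5 carried a control peak of 12782 bp. The lowest with a peak were Taf4b at 1.18%, Taf3, which binds trimethylated lysine 4 of histone H3, at 3.60%, and Taf1, the largest subunit, at 5.56%. Taf3 spans 134 kb and Taf1 spans 74.2 kb.

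Many Taf proteins bind each other through histone folds, and the genes of such partners were often covered to unequal extents. Taf11 was covered over 58.1% and its partner Taf13 had no covered base. Taf8 was covered over 75.6% and Taf3 over 3.60%, while Taf10, the partner of both, was covered over 44.3%. Taf6 and Taf9 stood at 63.5% and 36.0%, and Taf12 and Taf4 at 43.0% and 16.9%. Over the 11 histone-fold genes the median was 36.0%, with 8 marked, and over the 5 other TFIID genes it was 56.5%, with 4 marked. Taf13 is the only autosomal TFIID gene with no covered base. It lies on chromosome 3 from 108571699 to 108582068, overlaps no other annotated gene, and its nearest knockdown peak is 107838 bp away.

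The genes of factors that meet TFIID at promoters were mostly marked too. Of 19 genes for the TATA-binding protein family and the general transcription factors, 17 had a control peak, against 41.2% of all genes. Over the 19 the median covered share was 61.9%. None had a knockdown peak, where 4.95% of all genes had one. Ercc2, a TFIIH helicase, was highest at 88.3%. Tbp, the TATA-binding protein, was covered over 77.6%, whereas its paralog Tbpl1 and the TFIIH subunit Mnat1 had no covered base.

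The Taf genes outside TFIID supplied 2 of the 3 knockdown peaks. Of the SL1 genes, control peaks covered 82.4% of Taf1d. They covered 82.0% of Taf1c and 55.4% of Taf1a, and Taf1b had no covered base over 60.0 kb. Taf5l and Taf6l, which replace Taf5 and Taf6 in SAGA, were covered over 55.8% and 58.7%. Taf15 was covered over 45.0% by 4 peaks. Of 20 further SAGA and ATAC genes 18 had a control peak (41.2% of all genes), at a median of 38.9%. Wdr5, a WD40 protein found in ATAC and in H3K4 methyltransferase complexes, was highest at 89.0% and the only one with a knockdown peak (4.95% of all genes). It kept 14.8% of its length. Supt3 and Eny2 had no covered base.

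**Figure D2:**
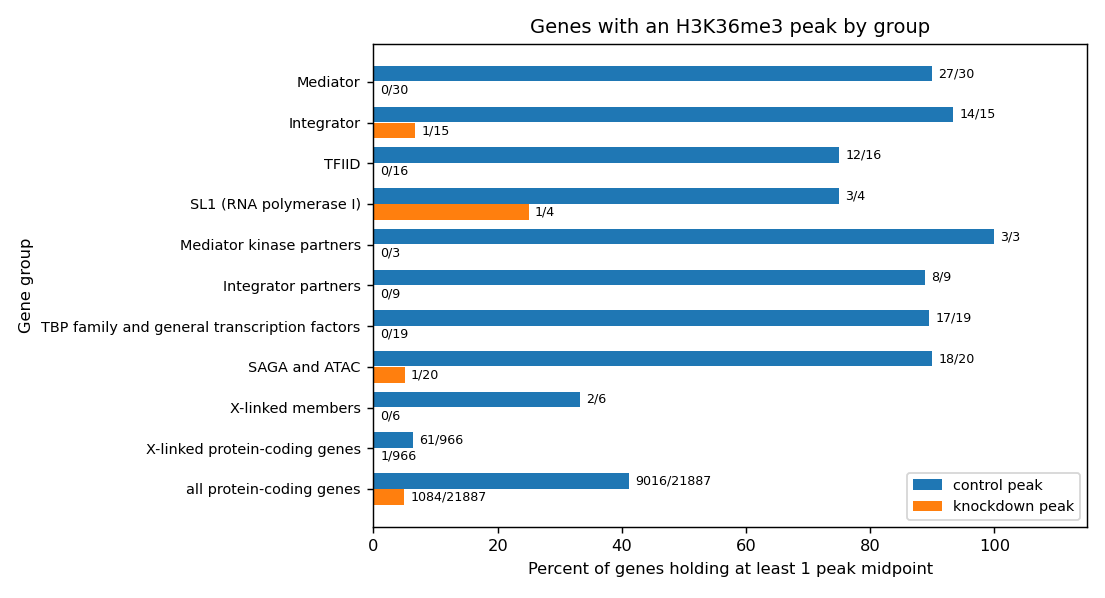
Percent of genes with at least 1 peak midpoint in the control list (blue bars) and the knockdown list (orange bars), by gene group, with the counts printed beside each bar. Mediator, Integrator and the partner lists lie between 88.9% and 100% in control and TFIID at 75%, against 41.2% for all genes. Knockdown bars are 0 or rest on 1 gene in each small group, against 4.95% for all genes.

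The 3 knockdown peaks were short and lay inside control peaks. Over all knockdown peaks in protein-coding genes the median length was 1615 bp, against 1613 bp here, and 80.6% overlapped a control peak. The median fold over background of all these peaks was 4.11 and the median density 36.7 tags per kb. Over Ints3 (chromosome 3, 90391380 to 90433636) the knockdown peak ran from 90402622 to 90404279, a length of 1658 bp with 65 tags. It lay within a control peak of 21643 bp and 1635 tags, which ran from 90390941 to 90412583. That control peak was the longest of the 178 and had the highest tag density, 75.5 tags per kb. The knockdown peak covered 3.92% of the gene where control peaks had covered 82.1%.

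Over Taf5l (chromosome 8, 123996310 to 124021397) the knockdown peak ran from 124002222 to 124003507, 1286 bp with 46 tags, and covered 5.13% of the gene. It lay within a control peak of 12848 bp at 64.2 tags per kb, which ranked 7 of 178 by density. Over Taf1d (chromosome 9, 15305953 to 15316997) the knockdown peak ran from 15313861 to 15315473, 1613 bp with 53 tags, and covered 14.6% of the gene. Its control peak held 57.8 tags per kb and ranked 28 of 178. The same stretch of Taf1d holds 4 annotated small nucleolar RNA genes, and reads of the host and of these genes cannot be told apart in a peak list. The 3 knockdown peaks had folds over background of 3.89, 3.68 and 3.88 and densities of 39.2, 35.8 and 32.9 tags per kb in the order Ints3, Taf5l and Taf1d. Control and knockdown densities come from libraries of different depth and from lists with their own thresholds, and are given as values only.

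**Figure D3:**
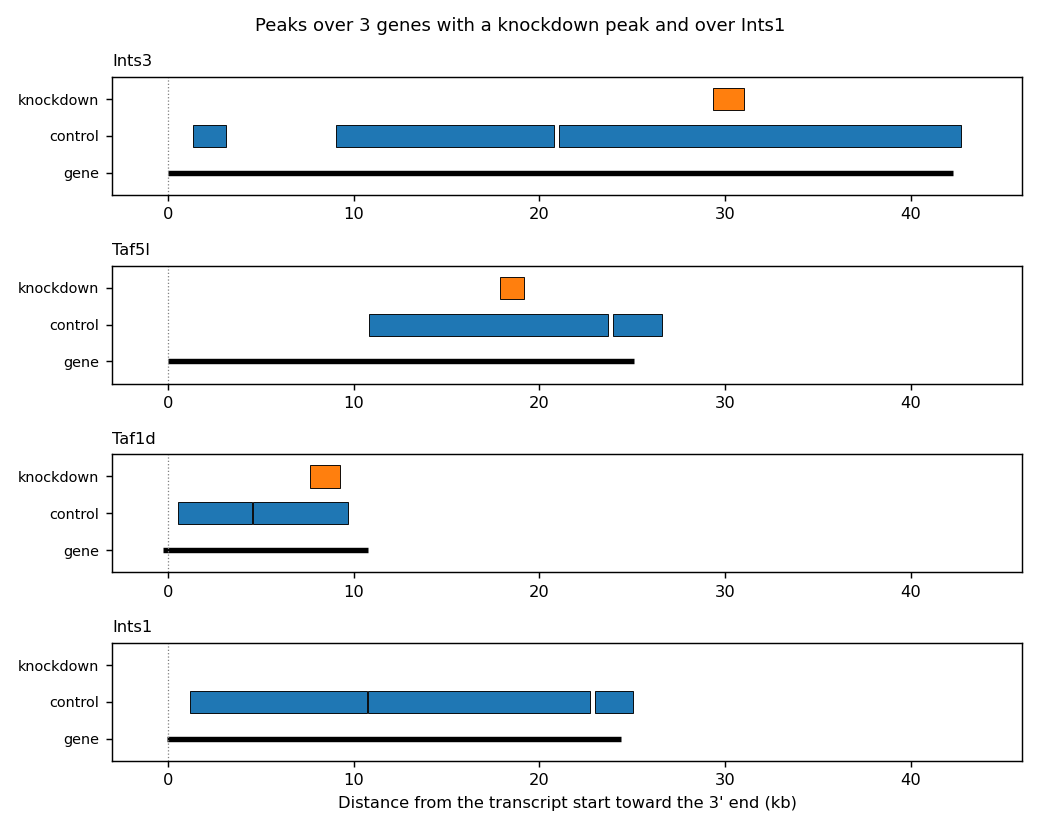
Control peaks (blue) and knockdown peaks (orange) over Ints3, Taf5l, Taf1d and, as a heavily marked gene without a knockdown peak, Ints1, drawn to scale in kb from the transcript start toward the 3′ end (black bar, gene span). Each knockdown peak is a short piece (1658, 1286 and 1613 bp) inside a longer control peak in the later part of the gene.

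By peaks rather than genes the share that stayed was also small. Of the 178 control peaks of members, 3 (1.69%, exact 95% interval 0.349% to 4.85%) were overlapped by a knockdown peak by at least 1 bp, against 3.85% of all control peaks in protein-coding genes. That share lies within the interval. With only as many top-scoring control peaks as the knockdown list holds, the share was 9.09% of 22 member peaks, against 15.8% in all genes, and it was 0 where 50% of the control peak had to be covered. The member peaks were a little longer than those of all genes, at a median of 2968.5 bp against 2597 bp, and 11 of them (6.18%) exceeded 10 kb, against 5.86%. The median fold over background was 4.53 against 4.34 and the median density 48.7 against 46.7 tags per kb. Neighbouring peaks of 1 gene are not independent, so the interval covers counting error only.

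The covered share was lowest in the members above 50 kb and did not fall evenly with length below that. In the 18 members of up to 10 kb the median share was 61.4%, and 16 had a peak, where 21.3% of all genes of that length did. In the 17 members of 10 to 20 kb the median was 46.5% (14 marked, 50.5% of all genes), and in the 15 members of 20 to 50 kb it was 55.8% (15 marked, 55.1% of all genes). In the 18 members above 50 kb the median was 9.53%, with 14 marked, against 51.3% of all genes. Spearman's rho between length and covered share was -0.44 over the 68 members. Covered share has length as its divisor, and between length and covered base pairs rho was 0.35. Over the 68, longer members thus tended to lower shares and more covered bases, but covered bases did not rise throughout. The 15 members of 20 to 50 kb together held 293 kb of covered bases, and the 18 above 50 kb held 226 kb. Med13l, at 22.3%, held the most covered bases of the 68, 45702 bp. Among genes with covered bases, rho between length and covered share was -0.43 over 61 members and -0.55 over 9806 genes, a description across genes that share 1 list. Long genes with high shares existed too, among them Ints4 with 60.4% of 60.4 kb and Taf2, which contacts promoter DNA, with 56.5% of 57.1 kb. The complexes were not compared at matched length.

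**Figure D4:**
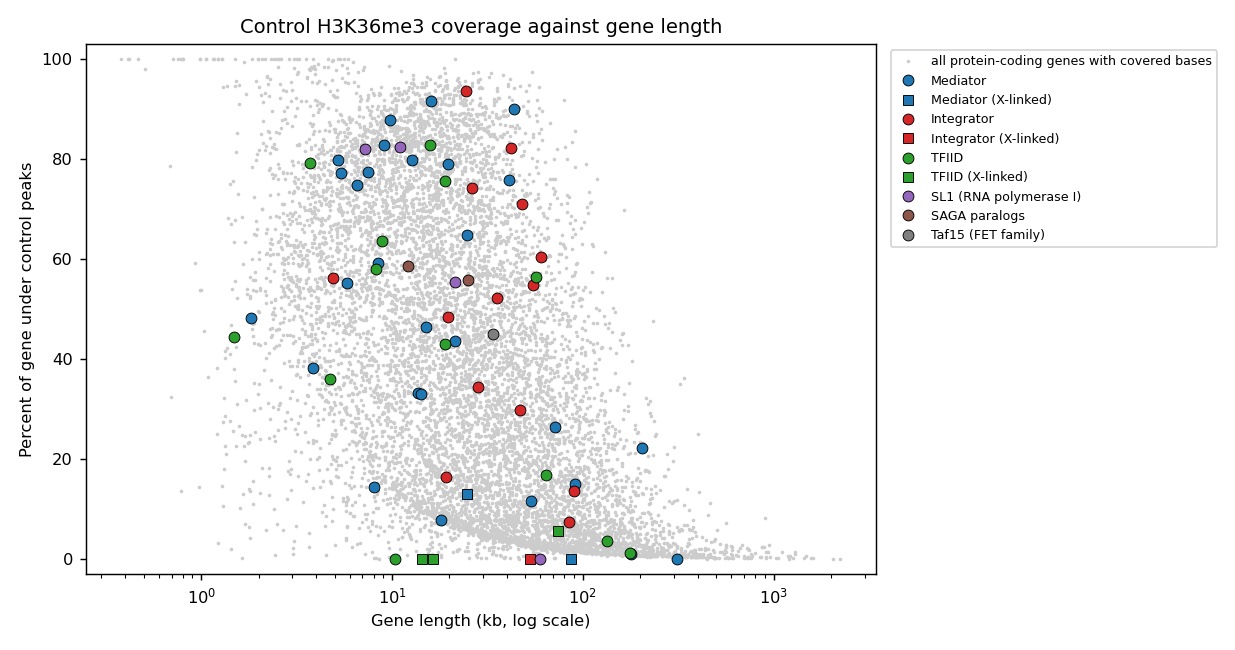
Percent of each gene under control peaks against gene length in kb (log axis), members coloured by complex with squares for X-linked genes, over all protein-coding genes with covered bases (grey). Members above 50 kb lie mostly low (median 9.53%), and 4 of the 6 X-linked members lie at 0.

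Members on the X chromosome were marked less than the others. The 6 X-linked members were Med12, Med14, Ints6l, Taf1, Taf7l and Taf9b. Of these, Med12 had 2 control peaks over 13.1% of its length and Taf1 had 2 over 5.56%, and the other 4 had none. Among all X-linked protein-coding genes 6.31% had a control peak. Of the 62 autosomal members 57 (91.9%) had one, against 43.3% of autosomal genes, and their median covered share was 55.0%. Med14 and Taf1 encode central subunits of their complexes. A missing or small peak at these genes says that no more was called in the control list, and does not show whether the gene was silent. The sex of the cells and the handling of the X chromosome in the alignment are not stated in the labels or headers.

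The tissue-restricted paralogs were almost unmarked. Taf7l, known from testis and fat cells, had no covered base, while its broadly expressed relative Taf7 was covered over 79.2%. Taf4b, known from gonads, had 1 control peak over 1.18% of a gene of 177 kb, while Taf4 was covered over 16.9% of 64.5 kb. Med12l had no covered base in a gene of 313 kb, while Med12 was covered over 13.1% of 24.8 kb. Without these 3 genes, 58 of 65 members (89.2%) had a control peak and the median covered share was 52.3%. Taf7l is X-linked and the other 2 are among the longest members, so tissue restriction cannot be told apart from chromosome and length here. Paralogs that are not tissue-restricted also stood apart from their relatives. Taf9b had no covered base against 36.0% in Taf9, and Ints6l none against 7.46% in Ints6, and both of the unmarked genes are X-linked.

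Along the gene the mark was low at the start and higher in the body. A strand and start were known for 57 members, of which 50 had covered bases. In none of the 50 did a peak cover the start itself, which was also rare over all genes with covered bases (2.24%). The first covered base lay at a median of 3.16 kb from the start (quartiles 1.55 and 6.11 kb), against 4.07 kb over all genes. It was nearest in Taf1d, at 524 bp, and farthest in Med13l, at 55.5 kb. In 46 members of at least 5 kb, the mean covered share was 9.08% in the first of 10 equal parts of the gene, 27.2% in the next and 57.2% in the fifth, and it reached 67.7% in the last. Over 7145 genes the same values were 8.21%, 22.0%, 40.8% and 53.9%. The complexes differed in shape. In 22 Mediator genes the mean was highest in the last part, at 78.0%. In 10 Integrator genes it was already 62.7% in the third part and 63.5% in the last. In 8 TFIID genes it was highest in the seventh part, at 66.1%, and 46.8% in the last. These differences were not tested. Over all 46 members, in the first kb past the 3′ end it was 46.3%, against 39.4%, and in the kb before the start it was 2.24%, against 3.16%. The mean before the start was 4.54% in Mediator, 0 in Integrator and 0 in TFIID. It rests mainly on Med22, whose upstream side lies under a peak over Rpl7a. After knockdown the highest mean among members was 3.68%, in the eighth of the 10 parts, against 1.85% over all genes, and in the ninth it was 1.35%, against 1.81%. The member value rests on the peaks of Ints3, Taf1d and Taf5l.

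**Figure D5:**
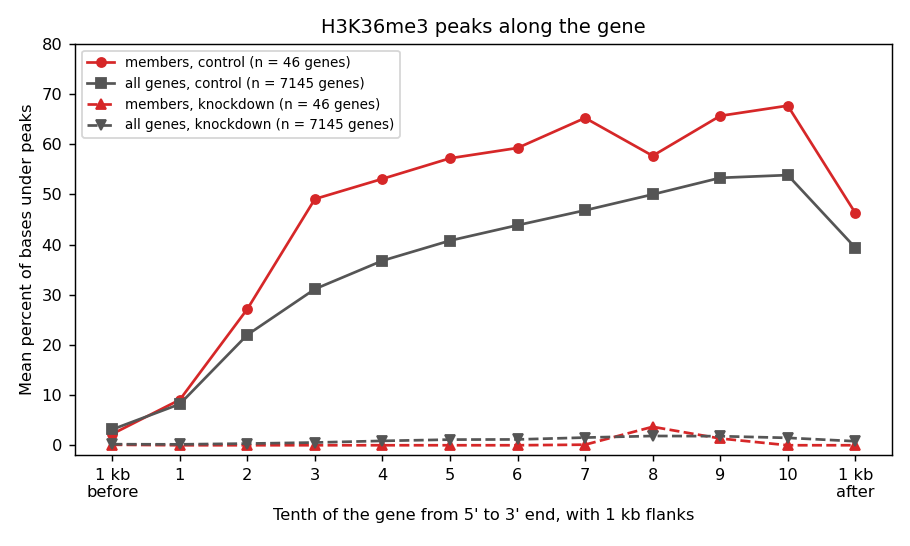
Mean percent of bases under peaks in 10 equal parts of the gene from the 5′ to the 3′ end, with 1 kb flanks, for 46 members (red) and 7145 protein-coding genes (grey) with a known strand, covered bases and a length of at least 5 kb, in control (solid) and knockdown (dashed). The control line of the members rises from 9.08% in the first of them to 67.7% in the last, and the knockdown line is 3.68% in the eighth, 1.35% in the ninth and at or near 0 elsewhere.

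Coverage often ran past the annotated 3′ end. It did so in 31 of the 50 members (62.0%), by a median of 0.866 kb, against 51.4% of all genes with covered bases and a median of 1.29 kb. The longest run was 5.14 kb at Taf6. At the other end, the 250 bases before the start touched a control peak in 1 of 57 members, against 1.35% of all genes. This was Med22, a head subunit that shares its upstream side with Rpl7a, a ribosomal protein gene transcribed in the opposite direction. The gap between the 2 annotated genes, shown because it is the only member start region that met a peak, is 42 bases long, of which 41 lay under the peak, and held 8 CpG dinucleotides and none of the 4 patterns.
Med22 to Rpl7a gap, chr2:26910643-26910684, minus strand: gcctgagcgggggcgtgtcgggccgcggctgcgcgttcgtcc
The peak ran from 26910644 to 26915341 (4698 bp, 337 tags) over Rpl7a, which was covered over 100% of its length, and Med22 itself carried its own control peak over 77.1% of its length. Neither gene had a knockdown peak.

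Some of these values are shared with neighbours. Of the 68 members, 40 overlap another annotated gene and 20 overlap a protein-coding one, and a peak over such a stretch cannot be assigned to 1 gene. Among the 28 members that overlap no annotated gene, 23 had a control peak and 1, Ints3, had a knockdown peak.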

How the data were processed

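H3K36me3 ChIP and input libraries (4 groups of 2 replicates) came from control and doxycycline-treated cells. Bowtie 1.1.2 and FastQC 0.11.5 are named per the submitters' processing notes, with the build mm10. MACS 1.4.2 called the peaks on merged replicates against merged inputs, per the file headers, at a p cutoff of 1e-05 and with 1 tag kept per position. That removal took 14.7% of 42509111 ChIP tags in control and 23.9% of 38670982 in knockdown. The kept inputs held 35134297 and 33403964 tags. The treatment of multi-mapping reads is not stated in the labels or headers.

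The deposited tables give for each peak a tag count, a score (the negative log10 of the p-value, multiplied by 10), a fold over background and an FDR in percent. These are the authors' values and serve here to describe or filter peaks within 1 list. The deposited BED files hold the peaks with an FDR of 5% or less (30595 and 2961), and their fold column was used only for that check.

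Gene spans, promoter sequences, strands and starts were taken from RefSeq tables of GRCm38.p6 (strand and start for 57 members, 11 without). Peaks were placed by midpoint, covered shares came from the union of peaks, and code was tested on simulated data. Python 3.11.15, numpy 2.4.6, pandas 2.3.3, scipy 1.17.1 and matplotlib 3.10.9 were used. Lists called on merged replicates allow no test between conditions, so none was made. Exact Clopper-Pearson 95% intervals cover counting error only, and the limit for a count of 0 is 3 counts. Both treat the genes or peaks of 1 pooled list as independent and are no test.

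The members, the partner and marker lists and the comparisons were chosen with earlier results of these data known. Genes named are those with a knockdown peak, the 3 highest and 3 lowest of each complex, those without a control peak, the tissue-restricted paralogs with their relatives, and in each partner list the highest, the lowest and any with a knockdown peak. Others are named for their role beside these, after their values were seen. The alternatives concerned how a gene is called, peak score and FDR, list size, joining of peaks and the members included. Leaving out X-linked members was added after the data were seen.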

Additional observations from a re-analysis of the deposited data

How the results depend on the processing

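The control count of 59 members stayed between 52 and 61 under 8 of 10 alternatives. With as many top-scoring control peaks as the knockdown list holds it was 20, and the median covered share was then 0 for Mediator, 0 for Integrator and 0 for TFIID. Without the members that overlap another gene it was 23 of 28. The 3 members with a knockdown peak, each also with a control peak, became 1 when at least 10% of the gene had to be covered, 1 with a caller score of 100 or more, 1 without overlapping members and 0 with an FDR of 1% or less. Under the other 6 alternatives 3 members had a knockdown peak, and 2 to 3 had both. The overlapped share of control peaks, 1.69%, was 0 when each peak had to cover 50% of the other, 0 when 50% of the control peak had to be covered, and 9.09% of the 22 member peaks left with the top-scoring list. Fewer peaks or genes enter these alternatives by construction. Without the members that overlap another gene the medians were 59.3% for Mediator, 45.3% for Integrator and 11.2% for TFIID, so that Mediator stood above Integrator. The TFIID genes left in include the X-linked Taf1, Taf7l and Taf9b. With a caller score of 100 or more the TFIID median was 27.6%. In the other 7 alternatives it lay between 39.5% and 44.3%, and Integrator stood above Mediator and Mediator above TFIID. Several of these could not move the medians. How a gene is called does not enter covered share, and the FDR limits of 5% and 1% removed no member control peak. The order could change only with peaks joined, without tissue-restricted paralogs or without X-linked members.

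No paired analysis was possible because peaks were called on merged replicates and the columns carry no replicate number, and for the same reason leaving out a replicate was not run. The knockdown list rests on fewer kept tags, so a missing knockdown peak means that none was called at this depth.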

Other observations

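Several members without a knockdown peak lay close to one. The nearest was a peak of 2589 bp with 112 tags and a fold of 5.41, which ended 956 bp before the start of Taf15, a gene covered over 45.0% in control and over 0 after knockdown. Taf12 lay 15.8 kb from a knockdown peak (fold 5.21) over Snhg12, a host of small nucleolar RNAs, 4 of which lie under that peak. Ints8 lay 15.5 kb from a knockdown peak of 7270 bp over A630034I12Rik, and Ints9 lay 8.01 kb from one over Hmbox1. Taf5l, which kept a peak of its own, lay 6.70 kb from another over Urb2. All 5 of these neighbouring peaks overlapped a control peak, while the knockdown peaks near Taf5, 23.6 kb and 27.2 kb away over Pdcd11, did not.

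Members of different complexes lay within 100 kb of each other in 3 places. Med13 and Ints2 were 9.42 kb apart on chromosome 11, with covered shares of 15.0% and 29.9%. Med17 and Taf1d were 26.0 kb apart on chromosome 9, with control shares of 79.0% and 82.4%, and Taf1d alone kept a knockdown peak. Med21 and Ints13 were 64.7 kb apart on chromosome 6, with shares of 14.4% and 34.5%.

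A pair of related loci fall outside the symbol rule. Taf7l2, a further Taf7 relative, had no covered base. Gm20517, an annotated gene that overlaps Med20, was covered over 33.3% by 3 control peaks and had no knockdown peak.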
